A study of Rattus norvegicus with 44 samples.

Results

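Potassium channel genes were followed across CA1 and the dentate gyrus (DG), both parts of the rat hippocampus. They were taken by symbol, as rows named Kcn followed by letters and a number, whose normalized read count reached 10 or more in 6 or more libraries of either region. Of 88 rows with such a symbol, 75 met this minimum, out of 20171 rows in both tables together. All 75 passed in CA1 and 72 in DG, where Kcnk16, Kcnk5 and Kcnn4 lay below the minimum. Just inside it, Kcnk16, Kcnn4 and Kcne4 each had 7 CA1 libraries at or above 10. Just outside, Kcnj15 had 5 in DG, and Kcnq1 and Kcnv2 had 3 each. The other 10 rows outside had at most 1 such library in either region, so the values below do not cover every potassium channel gene.

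Potassium channels let potassium leave the cell and so set the resting potential, end the action potential and limit how often a neuron fires. Voltage-gated alpha subunits assemble as tetramers and differ in how fast they open and inactivate, inward rectifiers and two-pore channels hold the membrane near rest, and calcium-activated channels shape the pause after a spike. In the hippocampus, A-type channels of the Kcnd family and M-current channels of the Kcnq family restrain pyramidal cells, and inward rectifiers of astrocytes buffer extracellular potassium.

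The tissue came from 22 male rats, with 1 hippocampus of each divided into CA1 and DG. Young vehicle rats (n = 8) and young LPS rats (n = 8) were 5 to 7 months old, and aged vehicle rats (n = 6) were 14 to 16 months old. The LPS rats received lipopolysaccharide, a bacterial endotoxin that provokes inflammation outside the brain, at 1 mg per kg into the peritoneum once a week for 7 weeks, and both vehicle groups received saline on that schedule. Tissue was taken 48 hours after injection number 7, polyadenylated RNA was sequenced, and no group combined age with LPS.

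Libraries held 12130182 to 23519791 reads. Wfs1, a CA1 pyramidal marker, lay between 11165 and 41628 in CA1 libraries, and its DG values were 522 to 10922. Prox1, which marks dentate granule cells, lay between 1831 and 4129 in DG, and its CA1 values were 298 to 1787, so neither marker was confined to its region. Whether RNA of the neighbouring region had a part in this was not tested. In bulk tissue, fewer cells of a type and less RNA per cell cannot be told apart.

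A pair of CA1 libraries stood apart over the potassium channel genes. In aged rat 2532 the deviations of the 75 genes from the CA1 medians had an SD of 0.96 on the log2 scale, and in young vehicle rat 2572 an SD of 0.846. The other 20 CA1 libraries had SDs of 0.215 to 0.495, and the 22 DG libraries 0.195 to 0.550. In rat 2532, 7 members lay more than 1 log2 unit above the median and 11 below it. The highest were Kcnt2 (a sodium-activated channel) at 2094 against a median of 448, Kcnmb2 (a beta subunit of the BK channel) at 188 against 43.4, Kcnk16 (a two-pore channel near the minimum) at 33.5 against 8.99, and Kcnv1 (a silent modifier subunit) at 1370 against 446. Among the lowest were Kcnk12 (a two-pore channel) at 14.6 against 67.7 and Kcnn1 (a small-conductance calcium-activated channel) at 75.8 against 257. The deviation was not limited to channels: 30.2% of all tested genes deviated by more than 1 in that library, against 10.8% in rat 2572 and 1.15 to 6.99% in the other CA1 libraries. In rat 2572 the SD owed much to genes near 0: Kcng3 and Kcnk16 had no read there. Kcna5, a Kv1 alpha subunit, stood at 82.4 in rat 2572 against a median of 23. In rat 2532, 9 of 10 interneuron markers lay below their CA1 mean (mean deviation of the list −0.63 on the log2 scale). Oligodendrocyte precursor markers were split, 2 above and 2 below (−0.50), and 4 of 6 choroid plexus markers lay above their mean (0.79). The summed interneuron markers of the aged CA1 libraries, 13505 to 15794, were not below those of young vehicle rats, 10695 to 14593. In such a sum the markers with the highest counts weigh most. Whether these lists had a part in the channel values was not tested. Where a log2 change of a named member moved by over 1.5 times without rat 2532, rat 2572 or both, a value without them is given.

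**Figure D1:**
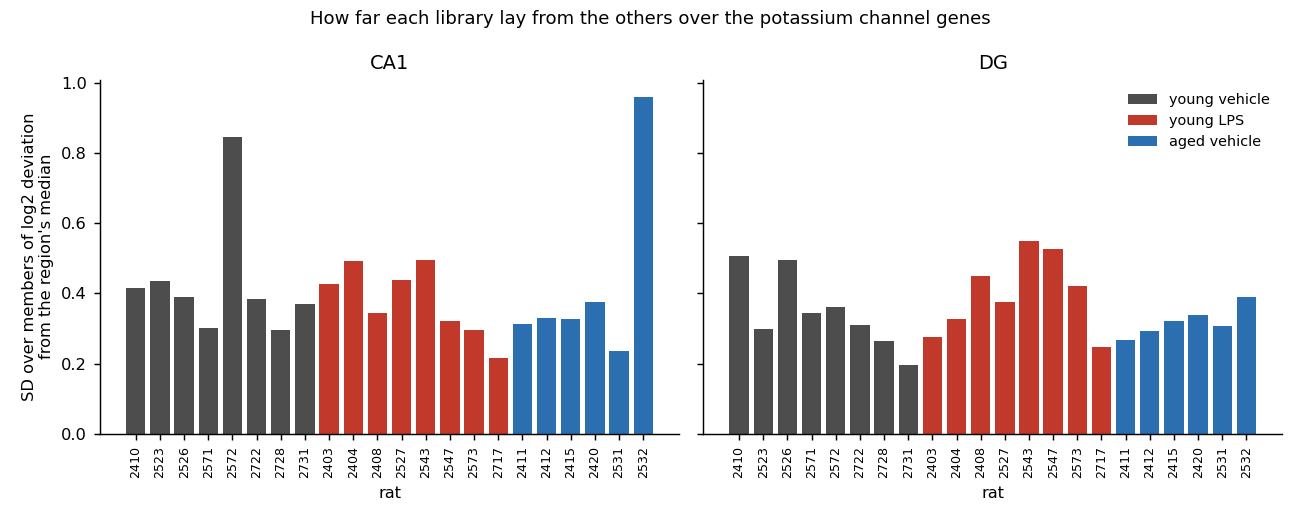
SD over the members of each library's log2 deviation from the region's median (y axis), for each rat (x axis), in CA1 (75 members) and DG (72 members), coloured by group. CA1 of rats 2532 (0.96) and 2572 (0.846) lies above all other libraries, which reach at most 0.550.

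The comparison of young LPS with aged vehicle rats in CA1 was the only one of the 6 within-region comparisons in which potassium channel genes passed the test. Kcnd3, an A-type subunit that opens below the spike threshold and inactivates quickly, was lower in the LPS rats. In all, 3 of 75 members passed, 2 higher and 1 lower, and stand against 8.73% of all 14915 genes tested in CA1 (limma adjusted p below 0.05), a higher share than among the members. At an unadjusted p below 0.05 there were 20 members (14 higher, 6 lower), beside 35.8% of all genes. The median log2 change was 0.11 over the members and 0.022 over all genes, with 47 members higher and 28 lower, where 52% of all genes were higher.

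For Kcnd3 the lowest, median and highest normalized counts in CA1 libraries were 595, 986 and 1145 in young LPS rats, 1048, 1255 and 1403 in aged rats, and 838, 1067 and 1235 in young vehicle rats. The aged libraries were mostly above the LPS libraries, with overlap between 1048 and 1145. The log2 difference, LPS minus aged, was −0.40 (SE 0.13, limma adjusted p = 0.0490), and −0.36 without rat 2532 (adjusted p = 0.127). In DG none of the 3 passed, and Kcnd3 had medians of 1822 in LPS and 1837 in aged rats.

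**Figure D2:**
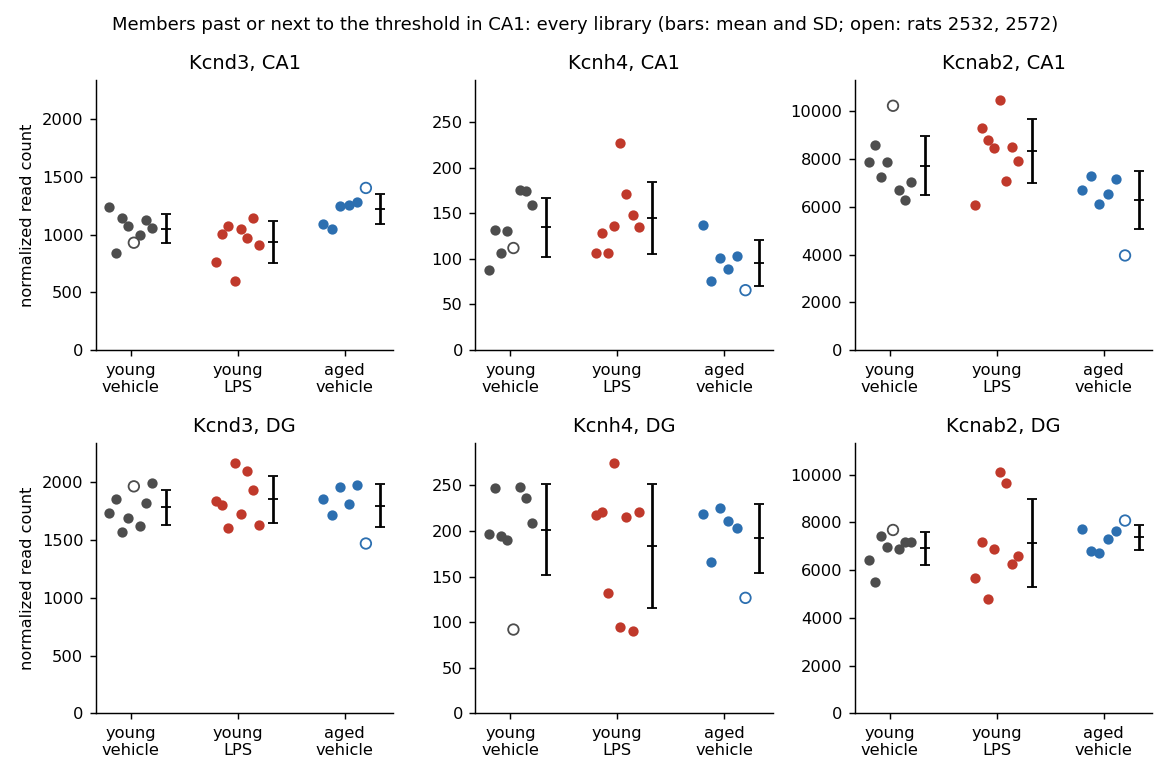
Normalized read count (y axis, from 0) of Kcnd3, which passed the threshold, and of Kcnh4 and Kcnab2, which lay next to it, in every CA1 (top) and DG (bottom) library by group, with the mean and SD beside each group and rats 2532 and 2572 as open circles. In CA1 the aged libraries sit high for Kcnd3 (1048 to 1403) and low for Kcnh4 (65.6 to 137), each with overlap with the LPS group.

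The calls lay at the edge of the threshold. Of the 1302 genes called in this comparison, 1300 had an adjusted p of 0.045 or more, and 5 further members had one between 0.05 and 0.06. Each CA1 library was left out in turn: with 15 of the 22 left out, among them rat 2532, no member passed, and with the other 7 left out between 5 and 15 did. Over all genes, 0 to 2 passed in those 15 runs and 1411 to 3399 in the other 7. Members without overlap between groups numbered 0, beside 0.838% of all genes. With all libraries, edgeR on the recovered reads called 8 members and DESeq2 14. The shares of all genes that these tools called are not given here, so these counts are not read as a result about the members.

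**Figure D3:**
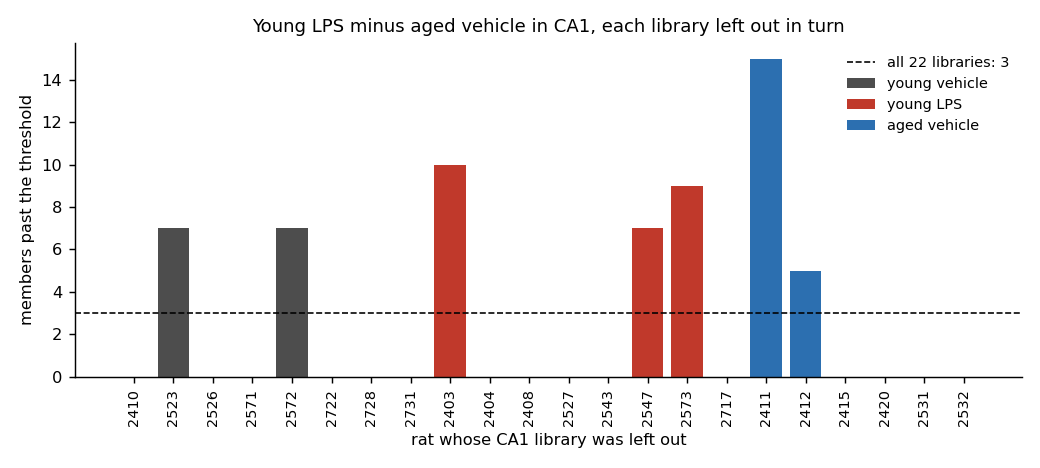
Number of potassium channel genes past the threshold in young LPS minus aged vehicle in CA1 (y axis) when the library of the rat on the x axis is left out, coloured by that rat's group. The dashed line marks the 3 genes found with all 22 libraries, and 15 of the bars are at 0. Over all genes, 0 to 3399 passed in these runs.

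Members next to the threshold came from several roles. Kcnh4, a channel of the ELK family, had medians of 136 in LPS and 94.9 in aged rats (log2 difference 0.60, SE 0.19, limma adjusted p = 0.0503). Kcnab2, the beta subunit that binds Kv1 channels in the cytosol, had medians of 8469 and 6621 (0.41, SE 0.14, adjusted p = 0.0527). Kcnj9, a subunit of the G-protein-gated inward rectifier, had medians of 1485 and 1196 (0.37, SE 0.12, adjusted p = 0.0540). All of these overlapped between groups, as did every other member in every comparison.

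Several of the wider differences in this comparison moved by over 1.5 times without rat 2532. Kcnt2 had a log2 difference of −0.85 (SE 0.30, limma adjusted p = 0.0621), with LPS libraries from 170 through a median of 341 to 510 and aged libraries from 338 through 502 to 2094. Without rat 2532 it was −0.49. Kcnip4, a KChIP protein that binds Kcnd channels, had a difference of −0.58 (SE 0.22) with that library and −0.34 without it. For Kcnmb2 the difference was −0.47 and became −0.11. Kcnk12 moved from 0.65 to 0.30, and Kcnn1 from 0.35 to 0.044. Kcnh6 (an ERG subunit) moved less, from 0.62 to 0.44, and Kcnh4 from 0.60 to 0.50. Kcna2, a Kv1 alpha subunit of axons, had a difference of −0.30 (SE 0.13, limma adjusted p = 0.102), and −0.19 (adjusted p = 0.295) without rat 2532, its highest aged library at 6251. Kcng2, a silent modifier, had a difference of 0.24 (SE 0.14). In the same comparison, 4 of 5 tested dentate granule markers were lower in CA1 of LPS rats (median log2 difference −0.33). Of 7 CA1 pyramidal markers 5 were higher (0.27), and none of either list passed the threshold. The interneuron, oligodendrocyte precursor, microglia, endothelial and mural lists each had 1 marker past it, beside 8.73% of all genes. The part of these markers in the channel values was not tested.

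For 2 of the genes discussed here, the RefSeq start region is printed (assembly GRCr8), because Kcnd3 passed the test in CA1 and Kcnt2 had the widest difference between LPS and aged rats there. Each sequence holds the 250 bases before the annotated start, 5′ to 3′ on the gene's strand. Capitals mark the GC box, GGGCGG or its reverse complement CCGCCC, both strands searched. It occurs in 30.5% of all 33469 windows of that length in the RefSeq table. Kcnd3 has 1 at chr2:195626066-195626315 (plus strand), with 79.6% G and C, and Kcnt2 has 1 at chr13:54215057-54215306 (plus strand), with 59.2%. A window was found for 51 of the 75 members, 68%, too few for a comparison of sequence features over the members.
Kcnd3: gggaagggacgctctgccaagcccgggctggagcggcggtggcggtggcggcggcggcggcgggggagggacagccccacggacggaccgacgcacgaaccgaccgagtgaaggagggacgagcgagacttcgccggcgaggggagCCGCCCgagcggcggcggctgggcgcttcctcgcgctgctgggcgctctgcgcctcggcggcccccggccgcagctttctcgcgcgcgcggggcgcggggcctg
Kcnt2: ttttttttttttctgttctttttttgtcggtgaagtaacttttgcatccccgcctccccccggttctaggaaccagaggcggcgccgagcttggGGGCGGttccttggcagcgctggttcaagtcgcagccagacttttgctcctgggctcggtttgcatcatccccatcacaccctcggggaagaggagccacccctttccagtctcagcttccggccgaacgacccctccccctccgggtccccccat

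Repeated LPS against vehicle in young CA1 moved no member past the threshold. The counts were 0 of 75 members and 0% of all genes with limma and 0 members with edgeR and DESeq2. At an unadjusted p below 0.05 there were 4 members, all higher in the LPS rats, beside 6.87% of all genes. In direction, 52 members were higher and 23 lower, with a median log2 change of 0.078 over the members and 0.012 over all genes, of which 52.2% were higher. By role, 11 of 12 inward rectifiers, 7 of 10 two-pore channels and 10 of 12 auxiliary subunits were higher. All 4 small- and intermediate-conductance channels, 7 of 9 silent modifiers and 4 of 7 Kv2, Kv3 and Kv4 subunits were higher too. Lower were 4 of 6 Kv1 subunits and 2 of 3 BK and sodium-activated channels. EAG, ERG and ELK subunits (4 higher, 4 lower) and Kv7 subunits (2 and 2) were even.

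Kcnh2, the ERG channel subunit that helps repolarise the membrane and limit repeated firing, had the smallest p. Its lowest, median and highest CA1 counts were 501, 661 and 828 in LPS rats and 412, 522 and 595 in vehicle rats. The LPS median lay above every vehicle library, and the lower LPS libraries overlapped. The log2 change was 0.34 (SE 0.12, limma unadjusted p = 0.0079, adjusted p = 0.654). Kcnj8, the pore subunit of the ATP-sensitive channel of pericytes and vascular smooth muscle, ran from 58.4 through 80.4 to 136 in LPS rats and from 38.5 through 63.3 to 111 in vehicle rats (0.42, SE 0.19, adjusted p = 0.654). The 5 mural markers beside it summed to 1652 to 2361 in LPS and 1533 to 2606 in vehicle rats, with 3 higher, 2 lower and none at 0. The part of mural cells in the Kcnj8 values was not tested.

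The highest log2 change, Kcng3, rested on rat 2572. This silent modifier had LPS counts from 12.4 through 23.5 to 33.9 and vehicle counts from 0 through 15.2 to 44.2. The change was 0.95 (SE 0.49, limma adjusted p = 0.654), and 0.44 without rat 2572, where no read was seen. Kcne5 (a minK-type subunit, 0.44) and Kcnk5 (a two-pore channel, 0.42) were at counts near the minimum. At the other end were Kcnt2 (−0.49), Kcnmb2 (−0.30), Kcnh7 (an ERG subunit, −0.29) and Kcnip4 (−0.26), none past the threshold. Among the smallest p of the remaining roles were those of Kcna6 (0.097), Kcnd3 (−0.18), Kcnn3 (0.17), Kcnab3 (0.20) and Kcnk4 (0.29), whose adjusted p ran from 0.654 to 0.794. Without rat 2572 the change of Kcnk4 was 0.18.

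Markers of the neighbouring subfield moved with this comparison. All 5 tested dentate granule markers were lower in CA1 of LPS rats (median log2 change −0.68), and all 7 CA1 pyramidal markers were higher (0.28), none past the threshold. The 7 measured granule markers summed to 574 to 6800 in LPS and 3046 to 5189 in vehicle rats, with Tdo2 at 0 in all LPS libraries. The 7 pyramidal markers summed to 36508 to 62486 in LPS and 29778 to 48643 in vehicle rats, none at 0. With the difference between the 2 lists as a term in the fit, the number of members past the threshold stayed 0, as without it. The small change of Kcna6 turned sign with that term. With age in CA1 all 5 granule markers were lower too (median −0.38), while 4 of 7 pyramidal markers were higher and 3 lower (0.011). The part of these markers in the channel values was not tested.

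Ageing in CA1 likewise gave 0 of 75 members past the threshold with limma, edgeR and DESeq2, beside 0.0134% of all genes with limma. At an unadjusted p below 0.05 there were 9 members, 2 higher and 7 lower in aged rats, beside 12.6% of all genes. The median log2 change was 0.0028 over the members and 0.0027 over all genes, with 39 members higher and 36 lower, where 50.4% of all genes were higher. Of the EAG, ERG and ELK subunits, 7 of 8 were lower. Kv2, Kv3 and Kv4 subunits (5 of 7) and Kv7 subunits (3 of 4) were also mostly lower, while most members of each other role were higher. This comparison shares its young vehicle rats with the LPS comparison and its aged rats with the preceding one.

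Kcnj16 had the highest log2 change among the 9. It encodes an inward rectifier that joins Kcnj10 in astrocyte channels. Its CA1 counts ran from 169 through 238 to 283 in aged rats, from 128 through 153 to 238 in young vehicle rats and from 141 through 173 to 211 in young LPS rats. The aged median lay at the top of the young vehicle range, and the ranges overlapped. The change with age was 0.45 (SE 0.15, limma unadjusted p = 0.0052, adjusted p = 0.393). The 8 astrocyte markers summed to 55105 to 69608 in aged and 46211 to 65474 in young vehicle rats, with 7 higher, 1 lower, none at 0 and none past the threshold. The part of astrocyte RNA in the Kcnj16 values was not tested.

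Among the lower members with age, Kcnh4 had counts from 65.6 through 94.9 to 137 in aged and 88.1 through 131 to 176 in young vehicle rats (−0.50, SE 0.19). Kcnq3, a subunit of the M-current channel, had 527 through 752 to 992 in aged and 804 through 897 to 1068 in young vehicle rats (−0.29, SE 0.12, and −0.19 without rat 2532). Kcnab2 (−0.31, SE 0.14) and Kcna1 (−0.26, SE 0.13), a Kv1 subunit of axons, had limma adjusted p = 0.393. Kcnab2 had −0.18 without rat 2532 and −0.12 without rats 2532 and 2572.

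Apart from Kcnh4 and Kcnj16, given above, the named extremes of log2 change with age in CA1 belonged to genes with few reads or to a single library. Kcng3 had 1.07 (SE 0.53), and 0.56 without rat 2572. Kcnk16 had 0.55 and Kcnn4, the intermediate-conductance channel, 0.46, both with medians under 10 in each group. Kcnk12 had −0.38 with rats 2532 and 2572 and 0.0056 without them, Kcnk16 had −0.20 without them and Kcnn4 had 1.05. The smallest p among the BK and sodium-activated channels was that of Kcnma1, the BK pore (0.18), among the two-pore channels that of Kcnk10 (−0.32) and among the small-conductance channels that of Kcnn2 (0.20). Without rat 2532 Kcnma1 had 0.085 and Kcnn2 0.10, and without both rats 0.032 and 0.019.

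**Figure D4:**
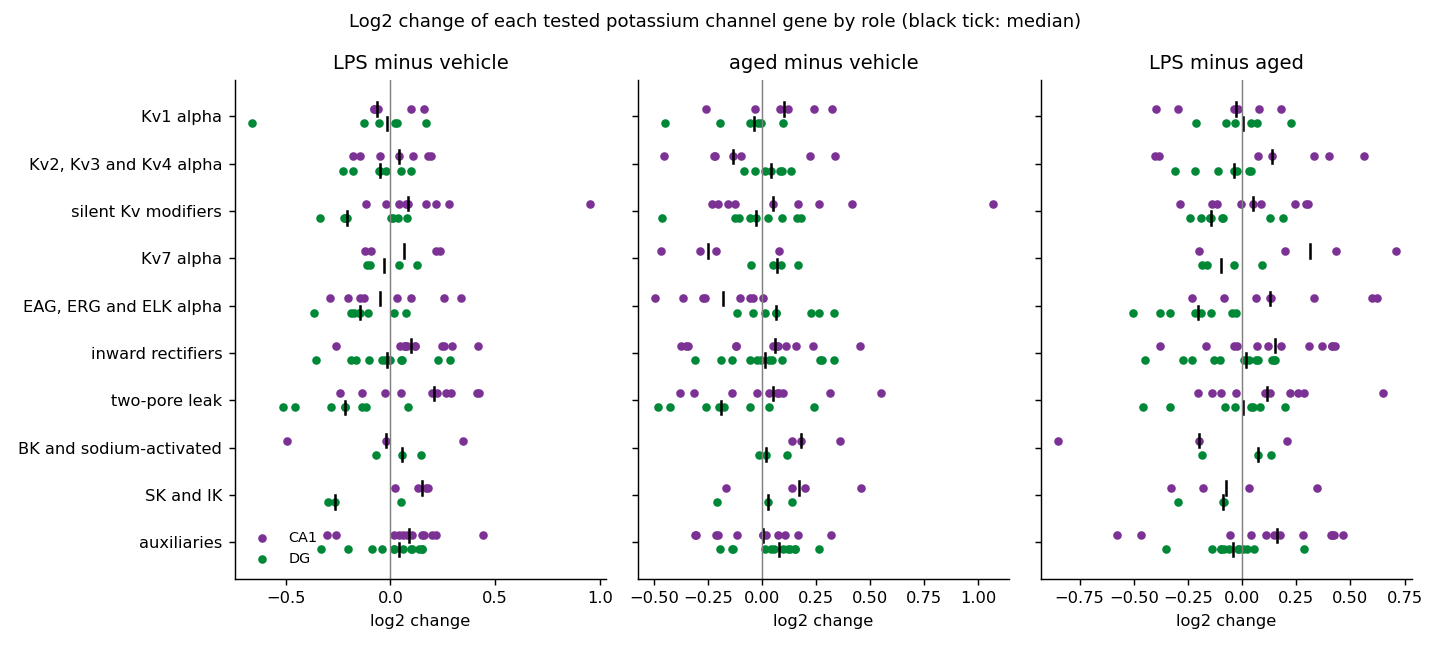
Log2 change (x axis) of every tested member, by role (y axis), in CA1 and DG for the 3 comparisons, with the median of each role as a black tick. Most changes lie within 0.5 of 0, and the point near 1 in the LPS and age panels is Kcng3 in CA1 (0.95 and 1.07).

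LPS in DG gave 0 of 72 members past the threshold with limma, edgeR and DESeq2, beside 0.0134% of all 14904 genes with limma. At an unadjusted p below 0.05 there were 5 members with limma and 6 with edgeR and with DESeq2, beside 7.53% of genes with limma. Of the 5, 1 was higher and 4 lower in the LPS rats. The median log2 change was −0.052 over the members and −0.0041 over all genes, with 29 higher and 43 lower, where 48.8% of all genes were higher. Two-pore channels were lower in 7 of 8 cases and EAG, ERG and ELK subunits in 6 of 8. Auxiliary subunits went the other way (8 of 12 higher), as did BK and sodium-activated channels (2 of 3). Kv1 and Kv7 subunits were even, and most members of each other role were lower.

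Kcna2 was the 1 higher member of the 5. Its DG counts ran from 3572 through 4143 to 4818 in LPS rats and from 3424 through 3665 to 4532 in vehicle rats, a shift within overlapping ranges (log2 change 0.17, SE 0.071, limma adjusted p = 0.598). Kcna5 had 15.8 through 24.6 to 52.8 in LPS and 32.5 through 39.9 to 95.1 in vehicle rats (−0.66, SE 0.25, adjusted p = 0.561). Kcnk9, an acid-sensitive two-pore channel, had 183 through 231 to 398 and 198 through 366 to 449 (−0.46, SE 0.19, adjusted p = 0.595). The LPS libraries of Kcnk9 sat mostly in the lower part of the vehicle range. Kcnn1 had 128 through 186 to 217 in LPS and 166 through 230 to 265 in vehicle rats (−0.27, SE 0.12).

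At the ends of the list in DG were Kcnj5 (a G-protein-gated rectifier, 0.29), Kcnj16 (0.23), Kcnmb4 (the neuronal BK beta subunit, 0.15), Kcnk12 (−0.51) and Kcnh8 (an ELK subunit, −0.36). Kcnj12, a classical inward rectifier, had −0.35, Kcnd1 −0.23, Kcng2 −0.21 and Kcnt2 0.15. Their adjusted p with limma ran from 0.671 to 0.837.

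Ageing in DG gave 0 of 72 members past the threshold with limma, edgeR and DESeq2, beside 0.0134% of all genes with limma. At an unadjusted p below 0.05 there were 6 members (1 higher, 5 lower) with limma and with DESeq2 and 5 with edgeR, beside 2.99% of genes with limma. The median log2 change was 0.022 over the members and 0.0059 over all genes, with 40 higher and 32 lower, where 51.8% of all genes were higher. Kcnk10, a stretch-sensitive two-pore channel, ran from 81 through 104 to 139 in aged and from 105 through 155 to 186 in young vehicle rats (−0.48, SE 0.16, limma unadjusted p = 0.0067, adjusted p = 1.00). Kcnk9 had a log2 change of −0.43 (SE 0.20), and −0.25 without rat 2532. Kcnj4, a strong inward rectifier of dendrites, ran from 1543 through 1977 to 2257 in aged and from 1696 through 2369 to 2976 in young vehicle rats (−0.31, SE 0.12). None of its aged libraries reached the young vehicle median. Kcnj14, another inward rectifier, was the 1 higher member, from 189 through 227 to 264 in aged and from 136 through 187 to 246 in young vehicle rats (0.27, SE 0.12).

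Other named values with age in DG were 0.33 for Kcnj16 and for Kcnh6, 0.27 for Kcnj5, −0.46 for Kcnf1 (a silent modifier), −0.45 for Kcna5, −0.20 for Kcna4 and 0.15 for Kcnab1. Without rats 2532 and 2572 the change of Kcnf1 was −0.27. Kcnc2 had 0.13, Kcnq5 0.16, Kcnt1 0.12 (0.025 without rat 2572) and Kcnn3 −0.21. All 7 CA1 pyramidal markers were higher in DG of aged rats, with a median log2 change of 0.76 and none past the threshold. They summed to 1865 to 17147 in aged and 1551 to 15124 in young vehicle rats, none at 0. Their part in the DG channel values was not tested.

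Young LPS against aged vehicle rats in DG also gave 0 of 72 members past the threshold with limma, edgeR and DESeq2, beside 0.0134% of all genes with limma. At an unadjusted p below 0.05 there were 9 members (2 higher, 7 lower) with each tool, beside 9.1% of genes with limma. The median log2 change was −0.076 over the members and −0.0083 over all genes, with 25 higher and 47 lower, where 48% of all genes were higher. By role, 7 of 12 inward rectifiers and 2 of 3 BK and sodium-activated channels were higher. Kv1 subunits and two-pore channels were even, and the other roles were mostly lower. All 8 EAG, ERG and ELK subunits were lower in the LPS rats, and Kcnh6 had the smallest p among them, at 27 through 43.8 to 57.1 in LPS and 50.5 through 56.4 to 69.5 in aged rats (−0.51, SE 0.21, limma adjusted p = 0.468). In CA1 the log2 difference of this gene was 0.62. Kcna2 had the smallest p, with aged counts from 3278 through 3571 to 3896 below most LPS libraries (0.23, SE 0.077, adjusted p = 0.363). Kcnk4, a two-pore channel opened by stretch and lipids, ran from 198 through 268 to 400 in LPS and from 221 through 393 to 474 in aged rats (−0.46, SE 0.17). The 7 CA1 pyramidal markers were all lower in LPS than in aged DG (median −0.55), which was not tested for a part in these values.

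The remaining named members of that comparison spanned −0.45 for Kcnj12 to 0.29 for Kcnmb4. Between them lay Kcnh8 (−0.38), Kcnd1 (−0.31), Kcnn1 (−0.29), Kcnj14 (−0.27), Kcng2 (−0.24), Kcnt2 (0.13), Kcnv1 (0.19) and Kcnk10 (0.20, or 0.13 without rat 2532). Groups without overlap were not found for any member in CA1 or DG. Over all genes they made up 0.0134% for LPS and 0.235% for age in CA1. In DG they made up 0.0403% for LPS, 0.0738% for age and 0.443% for LPS against aged.

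The effects of LPS and of age in CA1 were then set against those in DG by a test on the CA1 minus DG difference of each rat. For LPS, 0 of 72 members passed with limma, beside 0.00683% of 14637 genes, and 6 had an unadjusted p below 0.05, all with a more positive change in CA1, beside 13% of genes. The median difference was 0.15 over the members and 0.020 over all genes, with 49 positive and 23 negative, where 52.3% of all genes were positive. Kcnk9 had the smallest p, with a difference of 0.66 (SE 0.22, limma unadjusted p = 0.0079, adjusted p = 0.351). Its CA1 medians were 257 in LPS and 220 in vehicle rats, and its DG medians 231 and 366. The other 5 were Kcna5 (0.82), Kcnk12 (0.78), Kcnj12 (0.65), Kcnd1 (0.42) and Kcnk4 (0.51, named after its value was seen). Kcng3 had 0.94 (0.41 without rat 2572), Kcne5 0.77, Kcnn3 0.47, Kcnh2 0.44 and Kcng2 0.30. Negative values were those of Kcnt2 (−0.64), Kcnip4 (−0.37), Kcnh7 (−0.36) and Kcnk2 (−0.32).

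For age, 0 of 72 members passed, beside 0% of genes, and 3 had an unadjusted p below 0.05, beside 5.21% of genes with limma. The median difference was −0.084 over the members and 0.00045 over all genes, with 31 positive and 41 negative, where 50.1% of all genes were positive. All 8 EAG, ERG and ELK subunits and all 4 Kv7 subunits had a more negative age effect in CA1. A more positive one was seen for 5 of 6 Kv1 subunits and all 3 BK and sodium-activated channels, and the other roles were mixed. Among the 3 members with a limma unadjusted p below 0.05 were Kcnab2 (−0.41) and Kcnf1 (0.88). Kcnh6 had −0.70, Kcnh4 −0.45, Kcnj11 (the pore of the neuronal ATP-sensitive channel) −0.40 and Kcnq3 −0.24. Kcng3 had 0.91, Kcna5 0.54, Kcnk9 0.40, Kcnn3 0.35, Kcna2 0.30 and Kcnma1 0.20. Without rat 2532, 1 member had an unadjusted p below 0.05. The share of all genes in that run is not given here, so this count is not read as a result about the members. Also without rat 2532, Kcnab2 had −0.25, Kcnh6 −0.46, Kcnq3 −0.12, Kcna2 0.20 and Kcnma1 0.11, and without rat 2572 Kcng3 had 0.38.

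Levels in CA1 and DG were set side by side without a test, because the 2 tables were normalized separately. In young vehicle rats, 13 of 72 members had no overlap between the CA1 and DG libraries, 18.1% of members against 3.18% of all genes. Of these, 3 were higher in CA1 and 10 in DG, with a median log2 ratio of −0.20 over the members and −0.048 over all genes. In young LPS rats it was 8.33% of members against 5.5% of genes, and in aged rats, with fewer libraries, 25% against 8.79%. Among the members, only Kcnab1 and Kcnd3 were without overlap in all 3 groups. The share of all genes without overlap in all 3 groups was not computed.

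Kcnab1, a beta subunit that gives Kv1 channels fast inactivation, had 2341 to 3300 in CA1 and 1773 to 2231 in DG of young vehicle rats. Kcnd3 had 838 to 1235 in CA1 and 1566 to 1996 in DG. Both kept this order in LPS rats (Kcnab1 2516 to 3170 against 1787 to 2211, Kcnd3 595 to 1145 against 1604 to 2166). In aged rats Kcnab1 had 2500 to 3534 against 1880 to 2418, and Kcnd3 1048 to 1403 against 1470 to 1976. The Kcnd3 gap was thus narrowest in the aged rats, where the ratio of CA1 to DG means was 0.68, against 0.59 in young vehicle and 0.51 in LPS rats; that order was not tested.

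Other members higher in CA1 of young vehicle rats were Kcnh7 (192 to 344 against 64 to 188) and Kcns3, a silent modifier (277 to 392.4 against 154 to 276). Higher in DG was the high-threshold subunit Kcnc4 (927 to 1513 in CA1 against 1844 to 2560). Kcna1 had 656 to 960 in CA1 and 1118 to 1449 in DG. Among silent modifiers, Kcng1 had 600 to 1112 against 1552 to 2253 and Kcns2 169 to 299 against 303 to 469. Kcnk1, a weakly conducting two-pore channel, had 603 to 735 against 1004 to 1420, and Kcnk10 35.3 to 88.4 against 105 to 186. Kcnj2, a strong inward rectifier, had 54 to 109 against 114 to 198, and Kcnh8 5.84 to 40.9 against 46.3 to 102. In LPS rats Kcnh2 (501 to 828 in CA1 against 175 to 348 in DG) and Kcnn1 (221 to 416 against 128 to 217) had no overlap either, and neither did Kcnq5 (920 to 1288 against 1640 to 3910).

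**Figure D5:**
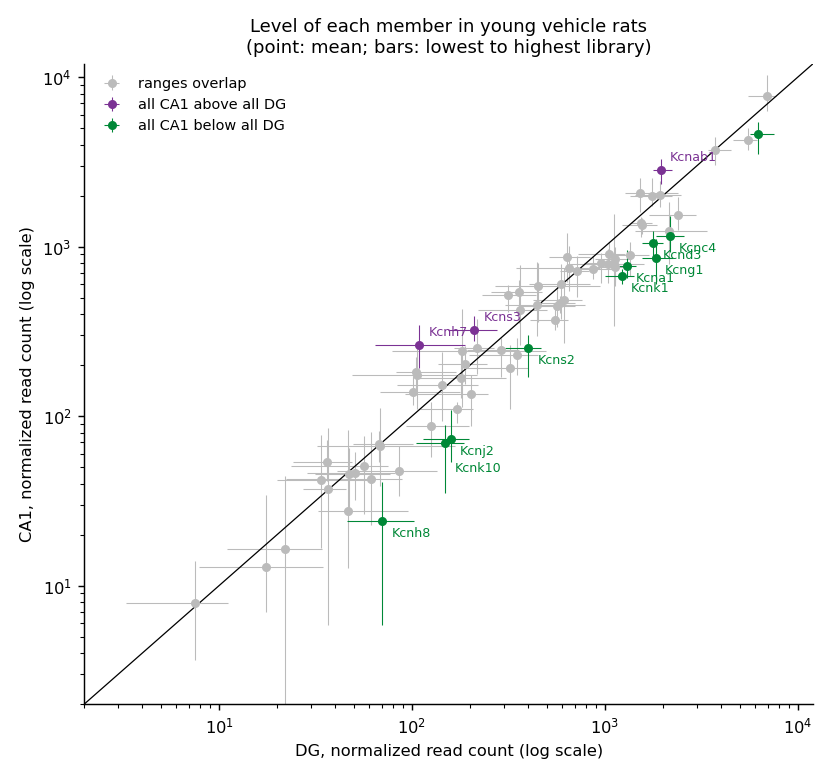
Mean normalized read count of each of 72 members in young vehicle rats in DG (x axis, log scale) and CA1 (y axis, log scale), with bars from the lowest to the highest of 8 libraries and the line of equal counts. Of the 13 members whose bars do not overlap, 3 lie above the line and 10 below it (a CA1 bar that reaches 0 runs off the axis).

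Spread between rats differed among members. In young vehicle CA1 the coefficient of variation ran from 6.85% for Kcnk1 to 82.1% for Kcnk5, with a median of 18.9%. Kcnj9 (7.89%) and Kcnc1 (8.16%), a fast alpha subunit, were also among the steadiest. In DG it ran from 8.52% for Kcnc1 to 76.9% for Kcnf1, with a median of 21.3%. Kcnf1 ranged from 78.6 to 495 in DG of young vehicle rats, and Kcnt1, a sodium-activated channel, from 270 to 945. In DG, Kcnj8 was highest in young vehicle rat 2526, at 166 against a group median of 53.1, and the mural marker mean of that library lay 1.00 above the DG mean on the log2 scale. In rat 2572 that marker mean lay 1.18 above and Kcnj8 stood at 53.4, and the part of mural RNA was not tested. Kcne2, a minK-type subunit of choroid plexus, stood at 85.1 in CA1 of rat 2526, where the choroid plexus marker mean lay 4.05 above the CA1 mean, and that library alone gave the top of the CA1 range, against 45.7 for the next.

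Genes that work with potassium channels but carry other names were read from a list of 38, such as the related HCN pacemaker channels, scaffolds, and auxiliary and signalling proteins. In CA1 33 were tested and in DG 32. In young LPS minus aged vehicle CA1, 1 of 33 was past the threshold, beside 8.73% of all genes, and 11 had an unadjusted p below 0.05, beside 35.8%. The 1 was Dlg4, which encodes the postsynaptic scaffold that clusters Kv1 and inward rectifier channels (log2 difference 0.47, SE 0.12, limma adjusted p = 0.0490). In that comparison 24 were higher and 9 lower, with a median of 0.093, beside 0.022 over all genes. In the other 7 comparisons 0 passed with limma, beside 0 to 0.0134% of all genes. An unadjusted p below 0.05 was seen for 0 to 4, beside 2.99 to 13% of all genes. There, Hcn4 (0.62, SE 0.20, limma adjusted p = 0.654) had the smallest p for LPS in CA1 and Dpp10, an auxiliary subunit of Kcnd channels, had the smallest for age in CA1 (0.63, SE 0.25, adjusted p = 0.393). Dpp10 was −0.74 (SE 0.25, adjusted p = 0.0545) in LPS minus aged CA1.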

How the data were processed

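For each region the authors deposited normalized read counts, a signal at or above 0. Per the submitters' processing notes, the tools were STAR, Partek and DESeq2 and the build rn6, without roles. How strand was handled, which annotation was taken and how reads were filtered is not given in the sources used here, so overlapping or antisense genes cannot be told apart. Values were whole multiples of a step, the value of 1 read (0.818 to 1.46 in CA1, 0.659 to 1.32 in DG), which gave whole reads within 0.1 for 99.75% and 99.98% of values.

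Genes at 10 or more in 6 or more libraries entered limma 3.58.1 (R 4.3.3, trend and robust options), fitted to log2(value + 1) separately for each region with the 3 groups together. P-values were adjusted by Benjamini-Hochberg over all genes, with a threshold of 0.05. Fold changes on this scale understate the change of low genes. Region differences used CA1 minus DG within each rat, a replicate block given by the titles' rat numbers. Same-rat deviations had a median correlation of 0.051, above 0.1 in 8 of 22 rats. In only 1 of the 22 did the CA1 library correlate best with the DG library of the same rat. Replicates were separate rats, and no 2 libraries of a group agreed within counting noise (lowest chi-square per gene 4.66 in CA1, 6.75 in DG).

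The members, roles, lists, tests and alternatives were chosen with earlier results of these data known. Results of 3 members are not reported here, though these entered every fit and count. The text otherwise names members past the threshold (up to 6 per direction), the 4 highest and 4 lowest log2 changes, and the smallest p in each role. Alternatives covered the pseudocount (5, 0.25), the filter, TMM scaling, edgeR 4.0.16 and DESeq2 1.42.0 on the recovered reads, the groups in the fit, the rats' number series, a dissection score (CA1 pyramidal minus granule markers), library weights and left-out libraries. The number series is given by the leading digits of the rat number, and what it stands for is not given. Young vehicle rats were 1 in series 24, 4 in 25 and 3 in 27, and young LPS rats 3, 4 and 1. Aged rats were 4 in series 24 and 2 in 25, so age and series cannot be fully told apart. The fits were tested on simulated data.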

Additional observations from a re-analysis of the deposited data

Results flagged for a closer look

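Sets of libraries (a named member in 1 group and region, 48 members) were tested by Dixon's criterion. In 33 of 279 sets, the highest or lowest library lay far from the others. Many of these members were named for extreme log2 changes, which a single library can produce, and many sets share a library. The count is therefore not set against a chance rate. Groups of 6 and 8 libraries were tested, and the values are normalized read counts.

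CA1 of aged rat 2532 held the most. There, Kcna2 (6251), Kcna4 (686), Kcnip4 (2389), Kcnmb2 (188), Kcnn2 (847), Kcnq5 (2770), Kcnt2 (2094) and Kcnv1 (1370) lay above the other aged libraries. Kcnab2 (3963), Kcnj11 (274), Kcnk12 (14.6) and Kcnt1 (245) lay below them. In CA1 of aged rat 2420, Kcnn4 was high, at 34.

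Other CA1 libraries held 4 further values. Kcna5 (82.4) and Kcne5 (34.3) were high in young vehicle rat 2572, and Kcnk2 (779) was high in young vehicle rat 2523. In young LPS rats, Kcne5 was high in rat 2404 (39.5).

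In DG of young vehicle rats, rat 2410 was high for Kcna2 (4532), Kcna6 (2393) and Kcnt1 (945), and rat 2526 for Kcna5 (95.1), Kcnj8 (166) and Kcnn3 (197). Kcnip4 was high in rat 2571 (842) and Kcnh4 low in rat 2572 (91.9). In DG of young LPS rats, Kcnf1 was high in rat 2408 (237), Kcnn3 in rat 2527 (171) and Kcnt2 in rat 2573 (986), while Kcnc2 was low in rat 2403 (579) and Kcnk12 in rat 2543 (11.2). In DG of aged rats, Kcna1 was high in rat 2531 (1774), Kcng3 was high (45.1) in rat 2415 and Kcnn1 was low there (196).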

How the results depend on the processing

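In CA1, for young LPS minus aged vehicle, 3 potassium channel genes passed the threshold, and this number depended on the settings. It was 0 without the filter, 0 with only the 2 groups in the fit, 0 without rats 2526, 2572 and 2532, and 0 without rats 2532 and 2572, a setting chosen after seeing the data. It was 8 with a mean of at least 50, 8 with edgeR, 14 with DESeq2, 11 with the number series in the fit, 6 with the dissection score and 12 with library weights. Over the 22 libraries left out in turn it ran from 0 to 15, beside 0 to 3399 of all genes. Shares of all genes under the other alternative settings of this section are not given here. Their counts are therefore not read as a result about the members. The cause of these shifts was not tested. For age in CA1 the number was 3 with library weights and 0 otherwise. For the other comparisons it was 0 in every setting run, and without the replicate block both region differences also gave 0.

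Of the named log2 changes, 6 turned sign, in 7 cases counted by setting, and none of these was past the threshold. For LPS, Kcna6 in CA1 was −0.025 with the dissection score and Kcnt2 in DG was −0.016 with library weights. For age in CA1, Kcnn2 was −0.017 with library weights, and without rats 2532 and 2572 Kcnk16 was −0.20 and Kcnk12 0.0056. For age in DG, Kcnt1 was −0.16 with the number series and −0.035 with the dissection score.

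Depth limited the members near the minimum of 10, such as Kcnk16, Kcnn4, Kcnk5 and Kcne5, where a few reads move a log2 change. No transcript lengths were used, so levels were not compared between genes. edgeR and DESeq2 were run within regions and not on the region differences.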
